A study of Homo sapiens with 30 samples.

Results

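Whole birch pollen was compared with mock in BEAS-2B cells collected 2h25min after the exposure, on 6 of the 30 arrays of the series. BEAS-2B, a human line of bronchial epithelium made immortal with viral genes, was grown on membrane inserts and kept at the air-liquid interface for 24 h before 10 mg of pollen was dispersed over them at 0.5 bar. The pollen group has 3 arrays and the mock group has 3, numbered 1 to 3 in both. Mock cells stood in the same chamber with the same air burst, behind a steel mesh that holds the grains back. Both groups thus share the handling and only the pollen group received pollen. Per the study, handling without pollen raised a limited number of genes at the same time, against cells left in the incubator. Among them it names ANGPTL4, IL6, SOCS3, DUSP5, DUSP6, EREG and SNAI1. These genes were also called higher with pollen over mock below. FOSB and TRIB1 are named there too and were not called. The series holds no arrays of incubator cells, so the share of handling in these changes was not tested. The members were taken by label alone, time and exposure, and no measured value was used. The line is 1 cell type without cilia or mucus and with limited tight junctions, and per the study's methods the repetitions were run on different days. Other arrays of the series hold the same pair of groups at 10min, 55min, 6h50min and 24h.

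Epithelial cells that sense a particle, a protease or a mechanical stimulus pass the signal through receptor kinases, MAP kinases, NF-kB and YAP with TEAD. Immediate early transcription factors are made first, then secreted cytokines and growth factors, then the inhibitors that switch the same pathways off again. In bronchial epithelium the secreted group is known for calling neutrophils and monocytes and for repair through the EGF receptor.

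Promoter sequence is shown for 4 genes that rose and for the 1 named gene that fell. They are CCN2, whose call held under most processing settings, ANGPTL4 with the largest called change, IL6 and AREG with matches to sought motifs, and TFRC. Each run is the 250 bases before the RefSeq start on GRCh38.p14, written 5′ to 3′ on the strand of the gene. Matches to a motif are in capitals. CCN2 lies on the minus strand at chr6:131951373-131951622, ANGPTL4 on the plus strand at chr19:8363905-8364154, IL6 on the plus strand at chr7:22726950-22727199, AREG on the plus strand at chr4:74444886-74445135 and TFRC on the minus strand at chr3:196082091-196082340.
CCN2: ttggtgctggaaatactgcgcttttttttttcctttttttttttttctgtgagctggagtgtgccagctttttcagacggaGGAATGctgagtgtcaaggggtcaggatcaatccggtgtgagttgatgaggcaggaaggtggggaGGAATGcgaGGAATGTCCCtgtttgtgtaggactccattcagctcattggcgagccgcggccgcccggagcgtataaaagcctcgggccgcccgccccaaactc
ANGPTL4: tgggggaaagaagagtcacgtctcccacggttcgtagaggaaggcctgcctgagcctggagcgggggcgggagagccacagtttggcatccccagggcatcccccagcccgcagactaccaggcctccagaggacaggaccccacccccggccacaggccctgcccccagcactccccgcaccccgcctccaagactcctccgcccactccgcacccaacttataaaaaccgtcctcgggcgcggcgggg
IL6: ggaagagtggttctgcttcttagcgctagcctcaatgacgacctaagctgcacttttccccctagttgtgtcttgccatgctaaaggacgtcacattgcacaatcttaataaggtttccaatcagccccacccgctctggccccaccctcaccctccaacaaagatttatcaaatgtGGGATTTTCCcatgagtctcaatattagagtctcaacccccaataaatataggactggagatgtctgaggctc
AREG: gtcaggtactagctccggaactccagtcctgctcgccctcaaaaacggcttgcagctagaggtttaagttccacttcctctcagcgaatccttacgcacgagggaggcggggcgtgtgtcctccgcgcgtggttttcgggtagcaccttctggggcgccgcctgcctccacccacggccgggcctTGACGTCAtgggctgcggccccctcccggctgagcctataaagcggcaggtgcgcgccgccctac
TFRC: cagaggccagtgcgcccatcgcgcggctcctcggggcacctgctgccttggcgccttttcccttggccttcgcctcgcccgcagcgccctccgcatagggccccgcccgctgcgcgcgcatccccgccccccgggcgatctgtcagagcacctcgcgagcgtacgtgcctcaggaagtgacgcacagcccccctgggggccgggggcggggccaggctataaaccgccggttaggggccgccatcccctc

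The window of CCN2 holds the TEAD motif GGAATG 3 times, and the third copy overlaps a match to the NF-kB motif on the other strand. IL6 holds 1 match to the NF-kB motif and AREG holds 1 copy of the CRE motif TGACGTCA. ANGPTL4 and TFRC hold no match to any of the 6 motifs sought on both strands. Of the 39 genes called higher below, 27 have a window in the RefSeq table, with 36 windows among them. The TEAD motif was in 8 of these 36 windows, of 8 genes, and in 11.9% of all 35116 windows of the table. The NF-kB motif was in 8 of the 36 windows, of 7 genes, and in 5.21% of all windows. The CArG box bound by SRF was in 3 of the 36 windows (1.16% of all), CRE in 2 (1.65%), the AP-1 motif TGANTCA in 1 (6.57%) and the STAT motif TTCNNNGAA in 1 (6.57%). A match is a run of letters and not a measured binding site.

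The values are log2 levels of spot intensity, set so that the 75th percentile of each array is 0. Of the 32100 probes tested, for 24512 gene names, 42 were called higher with pollen (0.131%) and 2 lower (0.00623%), at an adjusted p under 0.05 from limma with at least a 1.1-fold change and the replicate number as a pair. The 42 probes stand for 39 genes. At an unadjusted p under 0.05, 960 probes were higher (2.99%) and 1088 lower (3.39%). All 42 probes were well above background on the 6 arrays and higher in all 3 pairs. The pollen and mock arrays did not overlap for 41 of them, against 2.85% of all probes, and the exception was PTX3. The 42 probes were chosen by their rise on these same arrays. The shared sign and the lack of overlap thus follow largely from the call and are no separate support. A total of 16 probes were at least 2-fold higher.

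The call depends on the pairing and on each pair. Mock and pollen arrays of the same number deviated together from their group means, and without the pairs 11 probes were called (0.0343%), 10 of them among the 44. Without pair 1 the count was 2 and without pair 2 it was 1, with CCN2 called both times, and without pair 3 it was 35. The 6 arrays fitted alone gave 0 calls with limma, with 2437 probes at an unadjusted p under 0.05, and a fit without the 6h50min arrays called 28. Each pair lies in neighbouring positions of 1 slide, pairs 1 and 2 on the same slide and pair 3 on another, so that pair, slide and position cannot be told apart. Within the pairs the pollen arrays lay in slide columns 1, 3 and 1 and the mock arrays in columns 2, 4 and 2. Exposure and column therefore cannot be told apart either, and the pairing does not remove a difference between columns.

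**Figure D1:**
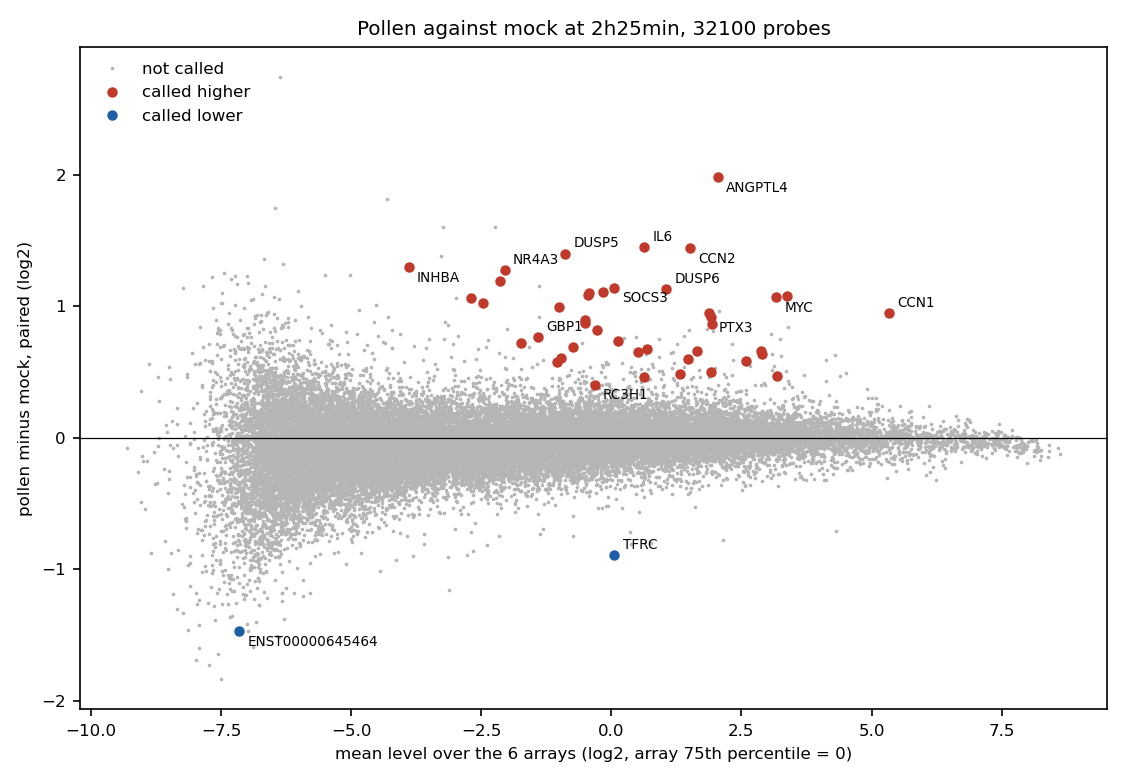
Change with pollen (y axis, log2, paired) against mean level over the 6 arrays (x axis, log2, array 75th percentile at 0) for 32100 probes. Red points are the 42 probes called higher, which lie above the dimmest probes, and blue points are the 2 called lower, TFRC at a middle level and ENST00000645464 near the lower end.

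ANGPTL4, a secreted inhibitor of lipoprotein lipase, had the largest called change. Its mock levels were 0.97, 1.44 and 0.75 in replicates 1 to 3, and its pollen levels were 2.87, 3.80 and 2.42. The lowest pollen array stood above the highest mock array by more than the range of the mock arrays. The change was 1.98 ± 0.18 (log2, SE, 3 pairs), a 3.94-fold rise with an adjusted p of 0.00214.

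Several genes of cytokines and other immune mediators were called. IL6, the founding cytokine of the gp130 family, had mock levels of 0.45, -0.75 and 0.01 and pollen levels of 1.92, 1.26 and 0.87, a 2.73-fold rise (adjusted p = 0.0436). LIF, another gp130 cytokine, went from -0.85, -1.30 and -0.80 to 0.23, 0.21 and -0.10, a 2.14-fold rise (adjusted p = 0.0126). IL1B, the precursor of interleukin-1 beta, went from -2.85, -2.71 and -2.68 to -1.48, -1.15 and -2.05, a 2.28-fold rise (adjusted p = 0.00958). In these 3 genes the groups did not overlap, and the mock arrays of IL1B were within 0.2 of each other. CCL2, which attracts monocytes, went from -1.88, -1.31 and -1.31 to -0.80, -0.04 and -0.67 and rose 1.99-fold (adjusted p = 0.00611). PTX3, a soluble pattern recognition protein made on cytokine signals, went from 2.08, 0.71 and 1.56 to 2.97, 2.00 and 2.13 and rose 1.88-fold within pairs (adjusted p = 0.0118). Its pollen replicate 2 lay below its mock replicate 1, so only the pairs set the groups apart, and without pairing its adjusted p was 1.

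Growth factors and matrix proteins formed the other secreted group. CCN2, a matricellular protein and a standard target of YAP and TEAD, had mock levels of 0.78, 0.77 and 0.83 and pollen levels of 2.33, 2.30 and 2.07. Both groups were tight, the rise was 2.71-fold (1.44 ± 0.11 on the log2 scale, 3 pairs) and the adjusted p of 0.000633 was the smallest of all probes. CCN1, its close relative, was among the brightest of the called genes and went from 5.00, 4.47 and 5.08 to 5.95, 5.80 and 5.66, a 1.93-fold rise (adjusted p = 0.0169). EREG, a ligand of the EGF receptor, went from -0.81, -1.30 and -0.86 to 0.36, 0.14 and -0.22 and rose 2.12-fold (adjusted p = 0.00958). A second ligand of that receptor, AREG, started from a higher level, 2.72, 2.28 and 2.64, and reached 3.54, 2.97 and 3.12, a 1.58-fold rise (adjusted p = 0.0284). The groups did not overlap in any of these 4 genes. INHBA, the subunit of activin A, was dim and went from -4.40, -4.39 and -4.85 to -3.20, -2.69 and -3.87 (2.46-fold, adjusted p = 0.00958). DKK1, a secreted inhibitor of WNT signalling, went from -0.52, -1.02 and -0.60 to 0.28, 0.82 and 0.08 (2.16-fold, adjusted p = 0.032), with pollen replicate 2 the highest array for both.

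Transcription factors were also among the called genes. NR4A3, an orphan nuclear receptor of the immediate early class, went from -2.58, -3.03 and -2.46 to -1.42, -1.35 and -1.48 and rose 2.42-fold (adjusted p = 0.0118). MYC went from 2.79, 2.48 and 2.64 to 3.91, 3.74 and 3.47 and rose 2.10-fold (adjusted p = 0.00479). BHLHE40, a repressor of the clock and of metabolic genes, went from -1.08, -1.07 and -0.73 to 0.05, -0.08 and -0.15 and rose 1.86-fold (adjusted p = 0.00995). The pollen arrays of NR4A3 lay within 0.2 of each other, while its mock replicate 2 was the lowest array. Smaller rises were called for SNAI1, a repressor of E-cadherin, by 0.73 on the log2 scale, KLF10, a TGF-beta inducible repressor, by 0.66, HIVEP1, a zinc finger protein that binds NF-kB type sites, by 0.61, and ZFP42, known from pluripotent cells, by 0.58.

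Phosphatases, kinases and other signalling proteins were also among the called genes. DUSP5, a nuclear phosphatase that inactivates ERK, went from -1.57, -2.07 and -1.14 to -0.18, -0.09 and -0.31, a 2.64-fold rise (adjusted p = 0.00958). DUSP6, its cytoplasmic counterpart, went from 0.50, 0.26 and 0.71 to 1.66, 1.78 and 1.40, a 2.18-fold rise (adjusted p = 0.00811). For both phosphatases the 3 pollen arrays were closer to each other than the 3 mock arrays were. IER3, an early response gene tied to ERK and NF-kB, rose 2.11-fold on its brighter probe, from 2.93, 2.56 and 3.01 to 4.11, 3.98 and 3.65 (adjusted p = 0.00958), and 1.93-fold on its second probe. SOCS3, which shuts off signalling from gp130, went from -0.54, -0.77 and -0.29 to 0.70, 0.72 and 0.41, a 2.20-fold rise (adjusted p = 0.00912). NFKB1, the gene of the NF-kB subunits p105 and p50, rose by 0.48 on the log2 scale, PIM1, a kinase downstream of STAT3, by 0.68, and MAP2K3, a kinase that activates p38, by 0.87 and 0.72 on 2 probes. Its other probes gave differences of 0.12 and -0.44, the latter well above background on 0 of the 6 arrays. Of the proteins that destroy cytokine mRNA, ZC3H12A rose by 0.69, ZFP36L1 by 0.64 and 0.58 on 2 probes, and RC3H1 by 0.40, the smallest of the called changes.

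Among the remaining called genes, C11orf96 went from -3.69, -3.08 and -2.90 to -2.36, -1.81 and -2.32, a change of 1.06 ± 0.15 (log2, SE, adjusted p = 0.0188). GASAL1, a noncoding gene, went from -3.40, -2.50 and -3.03 to -2.20, -1.42 and -2.24, a change of 1.03 ± 0.14 (adjusted p = 0.0169). The groups did not overlap in either. SH3RF3-AS1, an antisense transcript, rose by 0.88 on the log2 scale. GBP1, a guanylate binding protein known as an interferon target, rose by 0.77, IER5L by 0.82, PLK2, a polo-like kinase, by 0.59, MYADM, a membrane protein, by 0.50, the coactivator NCOA7 by 0.47 and MIDEAS, of a histone deacetylase complex, by 0.46. A probe listed as SIK1B rose by 0.65, and since SIK1B is nearly identical to the kinase gene SIK1 the probe may read either. The brighter of the 2 probes of IER5L gave a difference of -0.03, so its rise rests on the dimmer one. For LIF the second probe, near background, gave 0.37, and for MYADM the other 2 probes gave 0.40 and -0.04.

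**Figure D2:**
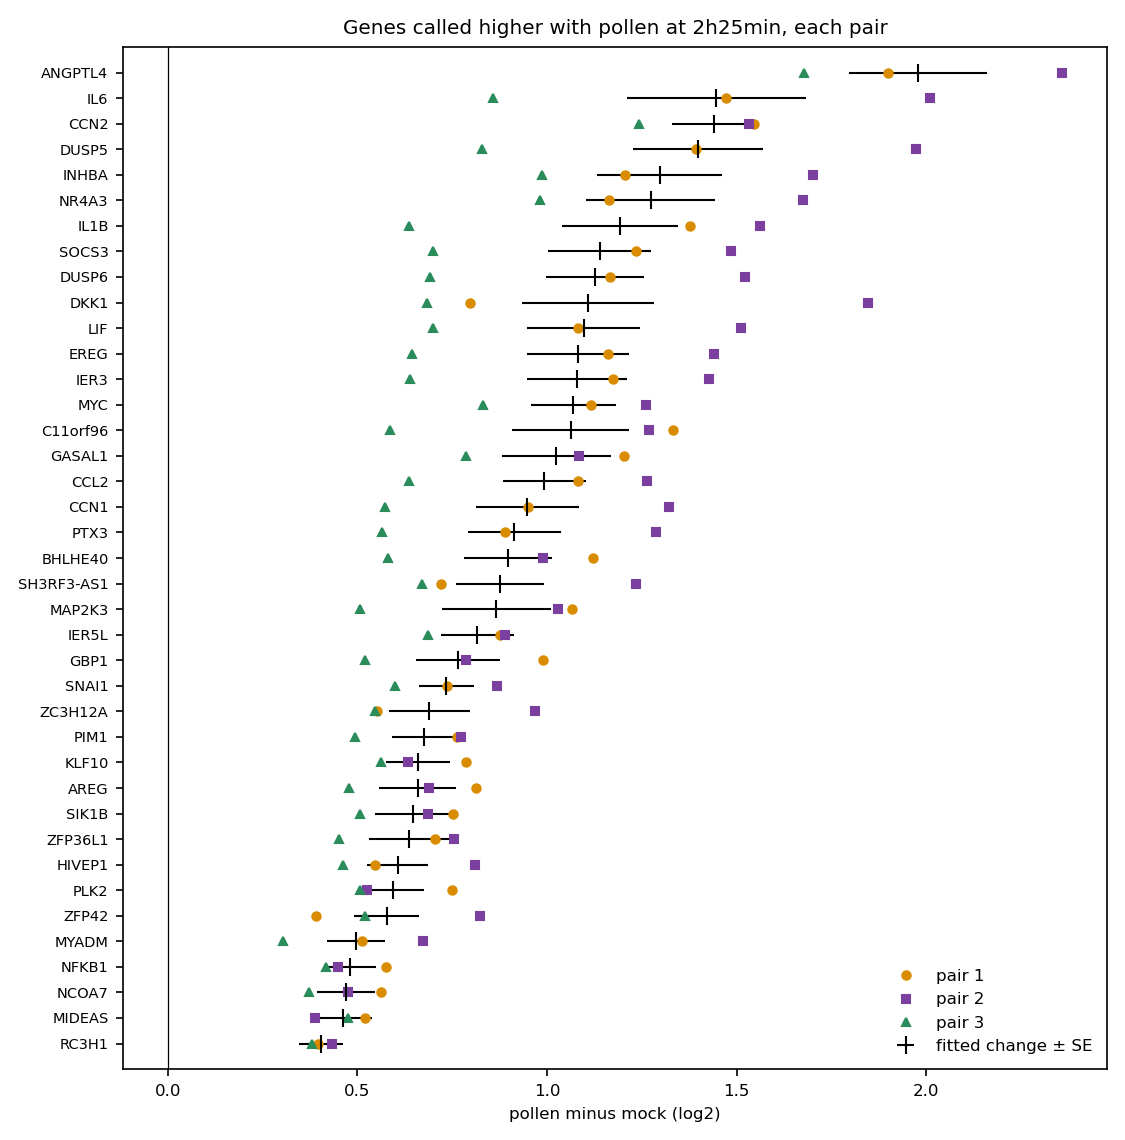
Difference between pollen and mock (x axis, log2) in each of the 3 pairs for the 39 genes called higher, ordered by the fitted change, which is drawn with its SE. Every point lies right of 0, and the triangles of pair 3 are the lowest in nearly all genes.

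The size of the rise differed between pairs. Over the 42 probes the median change was 0.88 in pair 1, 1.11 in pair 2 and 0.58 in pair 3 on the log2 scale. Pair 3 was the smallest of the 3 for 40 of the 42 probes and the largest for 0, and pair 2 was the largest for 29. Over all probes the medians of the pairs were 0.0024, -0.063 and -0.0067. Pair 3 is the pair on the other slide, and the part of slide, day and dose in its smaller values was not tested.

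In lists of related genes the called members were few, while the share of members higher in all pairs ran well above the 12.8% of all genes in some lists. By the probe that stands for each gene, 38 of 24512 genes were called higher (0.155%) and 2 lower (0.00816%), and the median change of all genes was -0.03. The list of immediate early transcription factors also holds other early response genes, such as IER3. Of its 35 genes tested, 5 were called higher (NR4A3, IER3, BHLHE40, SNAI1 and KLF10). In all 3 pairs 30 were higher and 0 lower, with a median of 0.49. Of 20 MAP kinase feedback genes 3 were called (DUSP5, DUSP6 and IER3), 16 were higher in all pairs and 3 lower in all pairs, with a median of 0.34. Beside them TRIB1, a pseudokinase, gave a log2 difference of 0.82 (adjusted p = 0.0749) and PHLDA1 gave 0.69 (adjusted p = 0.20). Of 33 NF-kB subunits, inhibitors and targets 5 were called (IL6, IL1B, CCL2, ZC3H12A and NFKB1), 25 were higher in all pairs and 1 lower in all pairs, with a median of 0.44. Of 20 gp130 cytokines and STAT3 targets 4 were called (IL6, SOCS3, LIF and PIM1) and 12 were higher in all pairs, with a median of 0.23, and BCL3 gave a difference of 0.84 with an adjusted p of 0.0566. The same genes stand in several lists, IER3 and IL6 among them, and the lists were drawn up with earlier results of these data known.

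Other lists held 1 to 3 called members. Of 21 YAP and TEAD targets 2 were called (CCN2 and CCN1) and 13 were higher in all pairs, with a median of 0.21. Of 9 EGF receptor ligands and receptors tested the 2 called were EREG and AREG, while HBEGF gave a difference of 0.52 (adjusted p = 0.58) and the receptor gene EGFR one of 0.03. Of 16 mRNA decay regulators 3 were called and 7 were higher in all pairs. Of 10 genes of the interleukin-1 family and its receptors IL1B alone was called and 6 were higher in all pairs, with values from -0.55 to 1.19 and a median of 0.26. Of 12 PPAR targets and of 15 glucocorticoid receptor targets the only called member was ANGPTL4, and 4 and 10 were higher in all pairs. Of 39 interferon-stimulated genes GBP1 alone was called and 7 were higher in all pairs against 8 lower. In the MYC network MYC was the 1 called of 12, and among 18 clock genes BHLHE40 was the 1 called.

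Lists with 0 called members in limma included the cell's stress programmes. They are heat shock chaperones (17 genes tested), NRF2 targets (19), metallothioneins (12), the unfolded protein and integrated stress response (22), p53 targets (21) and hypoxia and glycolysis (26). Their medians lay between -0.03 and 0.17, the highest for metallothioneins, of which 8 were higher in all pairs. Ribosome biogenesis (40 genes), cholesterol and fatty acid synthesis (29), mitosis (37), DNA replication (32), epithelial junctions (25) and ribosomal proteins (81) had medians from -0.03 to 0.03. Of 6 type 2 alarmins and receptors tested, 1 was higher in all pairs and 1 lower in all pairs, with a median of -0.04, and TSLP gave a difference of 0.04 with 1 mock array and 3 pollen arrays above background. In the list of ID genes with BMP and TGF-beta feedback, ID1, an inhibitor of differentiation factors, gave a difference of 0.96 (adjusted p = 0.157) with pollen above mock in every pair, while 6 of the 21 genes of that list (28.6%) were lower in all pairs and 9 higher, with a median of -0.02.

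**Figure D3:**
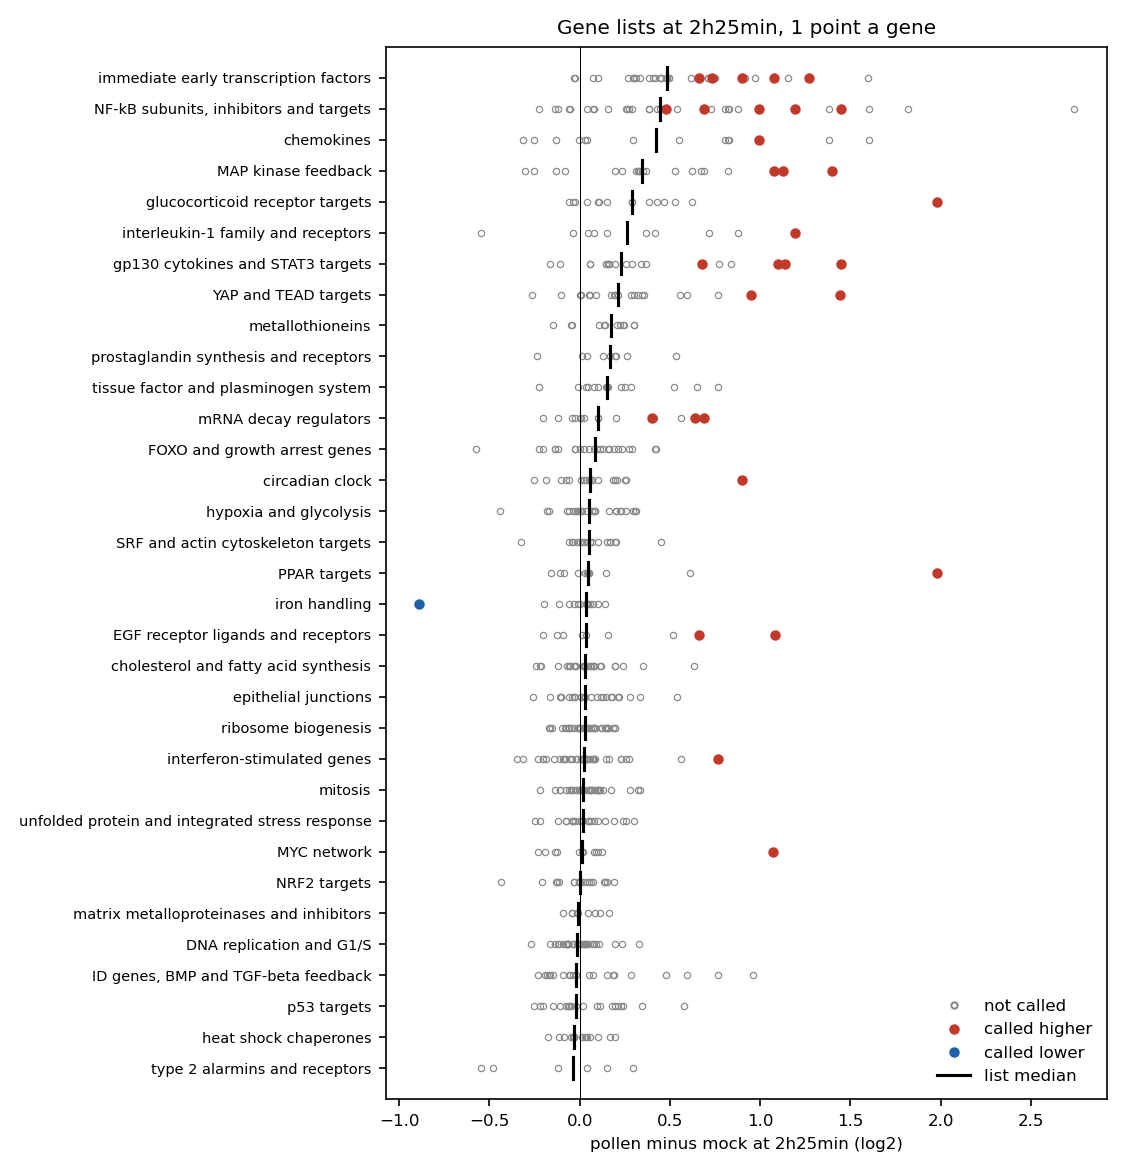
Change with pollen at 2h25min (x axis, log2) of each gene in the lists (rows, ordered by their median, drawn as a bar). Filled red points are genes called higher, the blue point is TFRC, called lower, and open points were not called. The medians of the upper 4 rows are between 0.34 and 0.49, and most rows lie near 0.

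Several cytokine and immediate early genes had a wide difference between the groups and were not called. CSF2, the gene of the growth factor GM-CSF, stood at -7.96, -9.12 and -6.15 in mock, above background on 1 of the 3 arrays, and at -5.30, -4.48 and -5.24 with pollen, above background on all 3. Its fitted difference of 2.74 ± 0.53 (log2, SE, adjusted p = 0.0997) thus rests on 2 mock values that were not well above background, and its size is uncertain. CSF3, the gene of the growth factor G-CSF, went from -5.21, -5.56 and -4.89 to -3.06, -3.19 and -3.96 (adjusted p = 0.243). The chemokine gene CCL20 went from -2.84, -3.32 and -2.93 to -1.05, -1.35 and -1.89 (adjusted p = 0.238). In all 3 genes the groups did not overlap. CXCL8, which attracts neutrophils, gave differences of 1.40, 1.35 and 1.39 in the 3 pairs, nearly alike, and its fitted change of 1.38 ± 0.56 (adjusted p = 0.734) carries an SE set by the pairs of all 5 times. FOSB, an immediate early gene, gave differences of 1.22, 2.85 and 0.72, and its adjusted p was 0.652. Of the 14 chemokines tested 1 was called, CCL2, 6 were higher in all pairs and the median was 0.42.

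TFRC, the transferrin receptor that brings iron into the cell, was the only gene with a reference symbol called lower. Its mock levels were 0.58, 0.62 and 0.29 and its pollen levels were -0.19, -0.33 and -0.66. All 3 pollen arrays lay below all 3 mock arrays, and the pairs differed by -0.77, -0.96 and -0.95. The gene fell by 0.89 on the log2 scale (SE 0.11), to a level 1.86-fold lower, with an adjusted p of 0.00958. Its probe lies at chr3:195776593-195776652 on hg19. Without pairing its adjusted p was 0.159. Of the 15 iron handling genes tested TFRC alone was called, 2 were higher in all pairs, and the ferritin light chain gene FTL and the iron regulatory genes ACO1 and IREB2 gave -0.12, 0.10 and 0.07.

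The other probe called lower, for the transcript ENST00000645464 on chromosome 6, was near background. It was well above background on 2 mock arrays and on 0 pollen arrays. With the pollen values raised to the smallest signal still called well above background, its level was 1.53-fold lower with pollen than with mock. The mock mean includes an array that was not well above background, so this value is not a firm bound. The adjusted p was 0.0224, and over 18 other settings the change lay between -1.54 and -0.12 on the log2 scale.

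Apart from these 2 probes the lower side held no further call in the main fit. The 12 genes with the most negative changes, among those above background on all 6 arrays, lower in all pairs and at an unadjusted p under 0.01, were HAS1, TFRC, ZNF589, ARSD, VWF, ZNF236-DT, GALNT7-DT, ANKRD24, LOC105373066, PPA2, TOB1-AS1 and ITPKB, with changes from -0.90 to -0.68. HAS1, a hyaluronan synthase, stood at -5.14, -5.18 and -5.45 in mock and at -6.18, -5.66 and -6.62 with pollen (adjusted p = 0.466). ARSD, a sulfatase, stood at -5.45, -4.74 and -5.62 in mock and at -6.26, -5.67 and -6.21 with pollen, and with an adjusted p of 0.0599 it came nearest to a call. ZNF236-DT, a divergent noncoding transcript, stood at -2.08, -1.83 and -1.49 and at -3.13, -2.45 and -2.07 (adjusted p = 0.486). The groups did not overlap in HAS1 and ARSD, while the highest pollen array of ZNF236-DT stood just above its lowest mock array. For 5 of the 12 a brighter probe of the same gene gave a smaller difference, -0.31 for ZNF589, -0.16 for ARSD, 0.02 for PPA2, -0.19 for TOB1-AS1 and -0.002 for ITPKB. For VWF a dimmer probe gave 0.09.

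**Figure D4:**
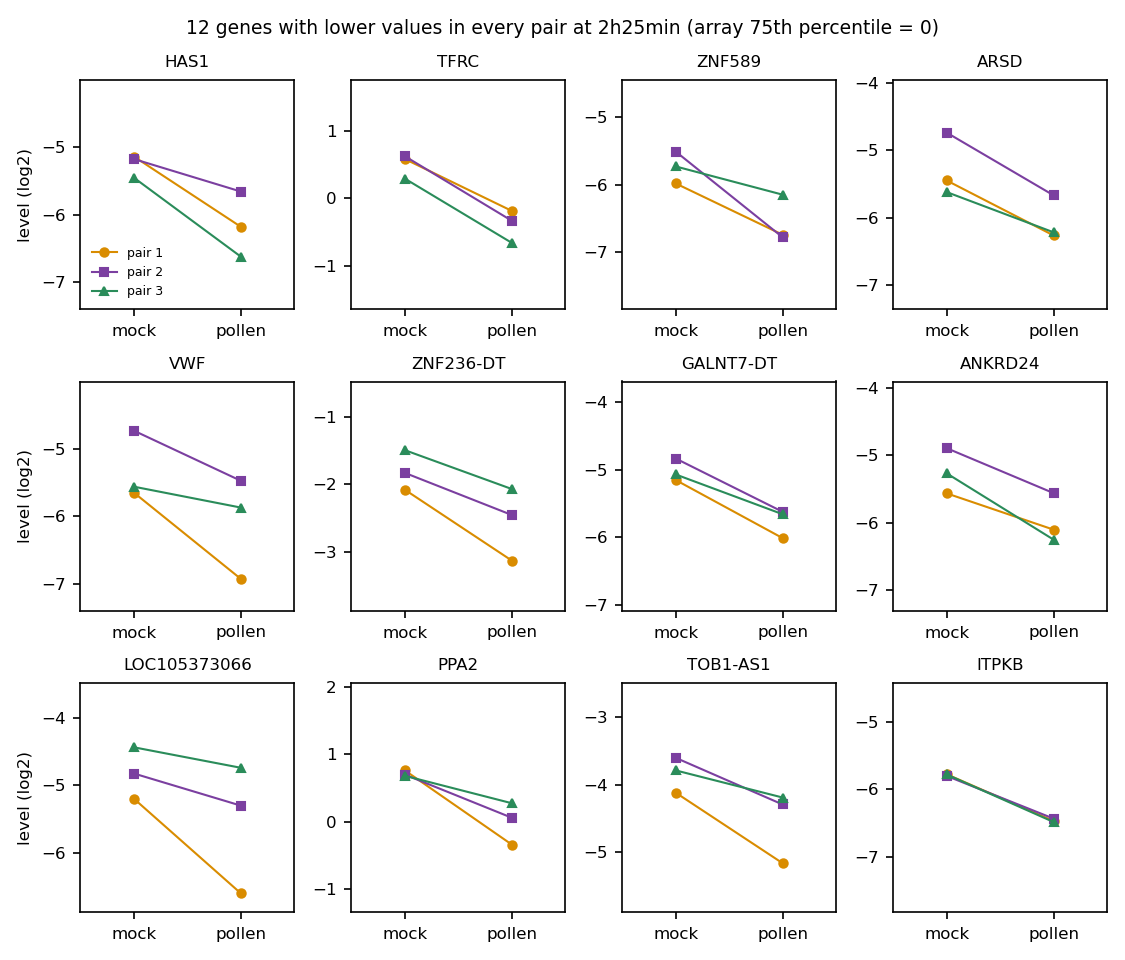
Levels (y axes, log2, each spanning the same range) of the 12 genes in mock and pollen, with a line for each pair. TFRC, ZNF236-DT and PPA2 are the brighter ones, and in the others both groups lie between -7 and -3.

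The genes that passed a looser cut-off on the lower and the higher side differed in level and kind. At an unadjusted p under 0.01 and with the same sign in all pairs, 127 of the 24512 genes tested were lower and 279 higher. Without any effect a share of 0.01 of all genes would reach such a p, both directions together. The lower set is about as large as this share would give on the lower side. It may thus consist largely of genes that did not change, and the higher set may hold such genes too. The kinds and levels below describe the sets and not genes shown to respond. Of the lower ones 44.9% were protein coding, with a median mock level of -3.52, and of the higher ones 93.2%, with a median of -0.26. Over all genes tested the values were 60.3% and -2.20. Among genes above the median level, 30 named genes were lower in this way and 214 higher, and after TFRC the largest change on the lower side was -0.75, that of ZNF236-DT.

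Noncoding transcripts leaned to the lower side. Of 1515 genes named as such (LINC names, antisense and divergent transcripts), 394 (26.0%) were lower in all 3 pairs and 95 (6.27%) higher, against 18.8% and 12.8% of all genes, and 1 was called, SH3RF3-AS1, which rose. Their median change was -0.09. Many of these transcripts are dim, so the same was counted in 4 equal classes of level. In the third class from below, 40.5% of 242 noncoding transcripts were lower in all pairs against 21.0% of all genes, and in the brightest class 36.5% of 52 against 15.3%. In the dimmest class the shares were 18.8% and 16.9%. Their median was negative under the 5 scalings tried, from -0.11 to -0.02, beside medians of all genes from -0.06 to 0.0002. The distance from all genes depended on the scaling. It was -0.093 against -0.032 with the 75th percentile over shared probes, and only -0.022 against -0.0089 with normexp and quantile normalization. Of zinc finger genes 100 of 442 (22.6%) were lower in all pairs and 37 (8.37%) higher, against 18.8% and 12.8% of all genes. In the upper 3 classes of level, from below, 25.2%, 23.4% and 16.4% of them were lower in all pairs. These shares were close to the 22.0%, 21.0% and 15.3% of all genes. The share higher in all pairs was 5.86% in the third class against 16.2% of all genes, and 8.66% against 8.34% in the second.

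All 11 markers of bronchial and simple epithelium were tested, with levels from -5.82 to 7.03 in the mean of the mock arrays. KRT7 stood at 7.03 and KRT18 at 6.10, and 0 of the 11 were called. The summed signal of these markers was 225 to 342 times the 75th percentile in mock arrays and 239 to 320 in pollen arrays. Of 10 leukocyte and mast cell markers 4 were tested, summing to 0.672 to 1.06 in mock and 0.792 to 1.31 with pollen, nearly all of it CD14. The mast cell genes TPSAB1 and MS4A2 did not pass the filter on dim probes. Of the endothelial markers PECAM1, KDR and TEK did not pass it either, and VWF and CDH5 were dim. Of 10 markers of ciliated and secretory cells 4 were tested, with mock means from -5.51 to 2.37, the highest being above the 75th percentile of the arrays. The ciliary gene FOXJ1 was not among the 4. Their summed signal was 4.37 to 6.70 in mock arrays and 3.64 to 4.64 in pollen arrays, and 2 of the 4 were lower in all pairs, with 0 called. The mesenchymal gene VIM stood at 6.54 in mock, so the line carries it beside its keratins.

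The genes called at 2h25min were compared with their changes at the other times, which share no array with these. Over the 42 probes the median change was -0.06 at 10min, 0.31 at 55min, 0.89 at 2h25min, 0.16 at 6h50min and -0.06 at 24h, and 15, 42, 42, 32 and 17 of them were higher with pollen at those times. The probes were chosen by their change at 2h25min, so the 42 at that time follows from the choice. The choice also favours the largest change at 2h25min. For all genes tested the median change was -0.01 at 55min and -0.005 at 6h50min, and the share of all probes higher at each time was not counted. At 55min all 42 were on the higher side, none of them called there. For SH3RF3-AS1 the 55min value rests on 2 pairs, as its probe is missing from 1 array of another design. Of the 44 probes 3 were also called at 6h50min, where 135 probes were called in all (0.421%). They are ANGPTL4 with 1.99, SH3RF3-AS1 with 0.65 and TFRC with -0.79.

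The difference between the effect at 2h25min and that at 55min was tested across all probes, and 0 passed (0% of 32100) by limma, with 1065 at an unadjusted p under 0.05 and 0.81 as the smallest adjusted p. The effect of IL6 was 1.36 at 55min and 1.45 at 2h25min, and that of CCN1 was 0.93 and 0.95. For others the later value was larger, as for ANGPTL4 with 0.41 and 1.98, SOCS3 with 0.24 and 1.14, CCL2 with 0.28 and 0.99, and TFRC with -0.09 and -0.89, but these differences did not pass the adjustment.

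Against 6h50min 2 probes passed (0.00623%), of 3432 at an unadjusted p under 0.05. For CCN2 the effect went from 1.44 to 0.12, a difference of -1.32 ± 0.16 (SE, 3 pairs at each time) with an adjusted p of 0.0499. For AKAP1, a mitochondrial anchor of protein kinase A, it went from -0.28 to 0.66, a difference of 0.93 ± 0.11 with the same adjusted p. This probe is the dimmer of the 2 tested for AKAP1, and the brighter one did not pass. Both calls stand at the threshold and were lost when any 1 pair of 2h25min was left out. Other differences did not pass, among them those of NR4A3, from 1.27 to -0.44 (adjusted p = 0.0983), and CCN1, from 0.95 to -0.15 (adjusted p = 0.139), while ANGPTL4 had 1.98 and 1.99 and TFRC -0.89 and -0.79.

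**Figure D5:**
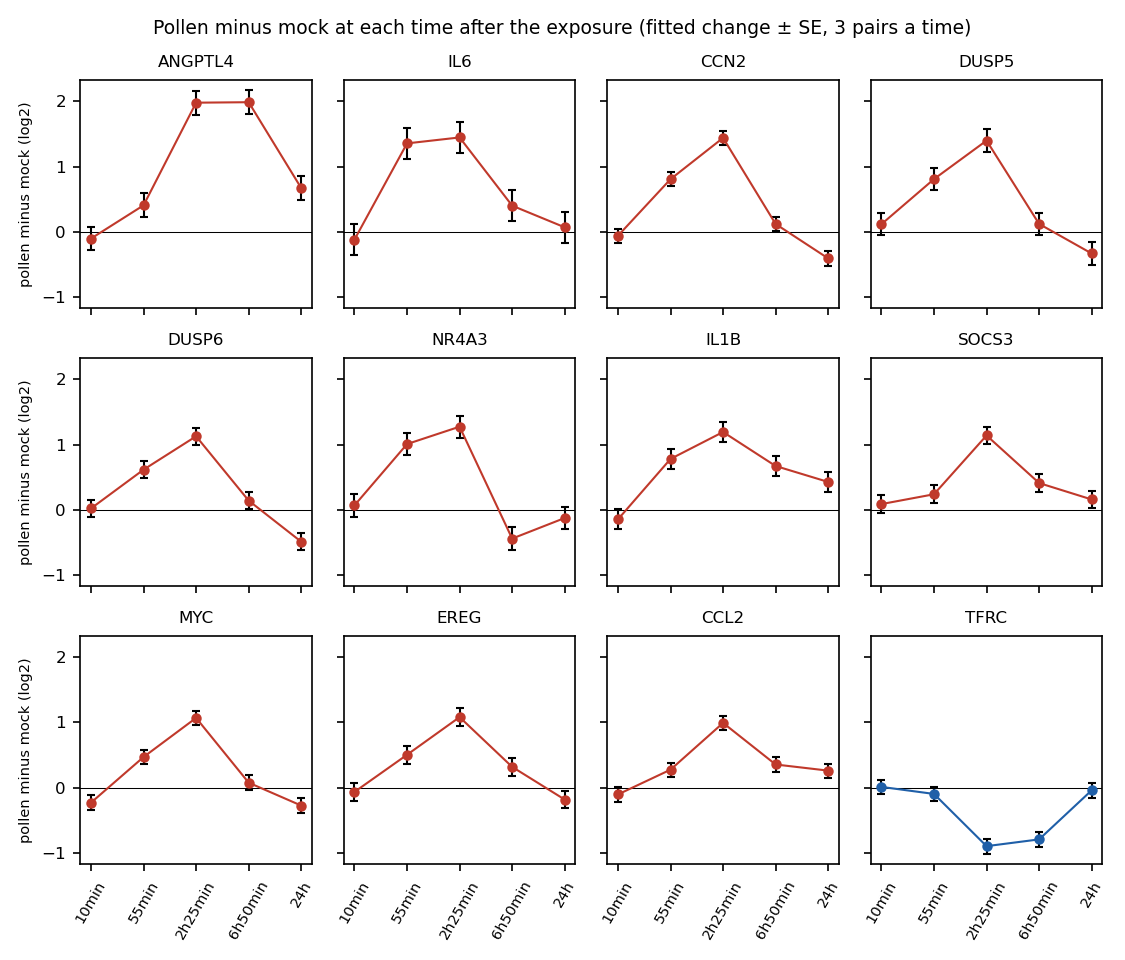
Change with pollen (y axes, log2, fitted change with SE as bars) at the 5 times (x axes, categories in order) for 11 genes called higher at 2h25min and TFRC. Of the genes called higher, all but ANGPTL4 stand highest at 2h25min and lower at 6h50min, as CCN2 with 1.44 and 0.12, while ANGPTL4 and TFRC hold their level at 6h50min. The genes were chosen by their change at 2h25min, which favours the largest value there.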

How the data were processed

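RNA of BEAS-2B cells was labelled with Cy3 and hybridized to one-colour Agilent arrays. Per the file headers, the authors deposited spot intensities that Feature Extraction (11.0.1.1 in the submitters' processing notes) had background subtracted and detrended within each array. A table of log2 values that the authors deposited served as an alternative. Its column medians lay between 5.69 and 5.79, 29 columns could be compared with the arrays, and at 24h 6 of these matched another array of their group.

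In R 4.3.3, replicate spots were averaged without flagged ones, put on the log2 scale and set against the 75th percentile of each array over the 33873 probes on both array designs. One 55min pollen array is of another design. A probe was tested if at least 1 of the 10 groups had it well above background on its 3 arrays. With limma 3.58.1 a model with 15 pairs (time by replicate number) and 5 pollen effects was fitted to the 30 arrays (lmFit, eBayes), which left 10 residual degrees of freedom beside 2.02 prior ones, and was tested on simulated data. A call needs a Benjamini-Hochberg adjusted p under 0.05 over all probes and, against mock, a change of at least 1.1-fold. All gene p-values are from limma. Replicate numbers come from the labels and were checked as pairs: deviations from the group means correlated at 0.523, 0.417 and 0.556 between same-numbered mock and pollen arrays and at -0.363 to -0.147 between others, over 28354 probes. Deviations within a group cancel out, so positive values between same-numbered arrays force negative ones between others. The negative values are thus no separate evidence for the pairs. The labels do not say what a number marks. The fold change given for the probe called lower near background takes, for the dim group, the smallest signal that an array still called well above background.

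In the lists and counts of genes, a gene is represented by its brightest tested probe. The 12 most negative genes were instead ranked by their most negative probe that met the conditions, and a gene counts as called by any of its probes. Named genes are those with a called probe, the 12 most negative ones as defined in the text, and in each list the called members and up to 4 others with the largest changes. Markers, and genes named for contrast, were picked with their values in view. The comparison, the lists and the named genes were chosen with earlier results of these data known.

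On the 6 arrays 51.4% to 57.4% of probes were well above background, the 75th percentile was 1177 to 1740 units of intensity and 0 spots were saturated. The number of arrays limits the precision. Of the probes of the main design, 33536 were named by accession, 4609 by the gene name, and 20056 kept the name in the file. Promoter sequences are from RefSeq (GRCh38.p14), with 27 of 39 genes matched.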

Additional observations from a re-analysis of the deposited data

Results flagged for a closer look

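The effect of pollen on 2 probes differed between times by the interaction test. For CCN2 the effect at 6h50min minus that at 2h25min was -1.32 on the log2 scale, and for AKAP1 it was 0.93, both with an adjusted p of 0.0499 from limma. CCN2 was 1.44 higher with pollen at 2h25min and 0.12 at 6h50min. The AKAP1 probe was at -3.37, -2.87 and -3.16 in mock and at -3.79, -3.06 and -3.38 with pollen at 2h25min, and was 0.66 higher with pollen at 6h50min. It is the dimmer of the 2 probes tested for AKAP1, and the brighter one did not pass. Over 18 other settings the difference of CCN2 lay between -1.49 and -1.26 and passed in 11, and that of AKAP1 lay between 0.45 and 0.98 and passed in 4. With 3 arrays a group, single outlying arrays were not looked for.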

How the results depend on the processing

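Against mock, 44 probes were called. The count was 57 with a random replicate block, 47 with quantile normalization, 47 with normexp and the 75th percentile, 49 with the filter on the 2h25min groups, and 44 with the slide as a further block, which can act only through the 55min pair that spans slides and gives the same fit as leaving out the 55min array of another design. It was 11 with no replicate block, 23 with a slide block in its place, 28 without the 6h50min arrays, 0 with the 6 arrays alone, 2 with the percentile over own probes, which shifts the array of the other design, and 15 with no filter. It rose to 81 with normexp and quantile normalization, 70 with the authors' value table, 87 with probes above background on all 30 arrays, 92 with trend and robust eBayes and 184 with array weights. Leaving out 1 pair gave 1 to 35. Of the 184 probes called with array weights 40 were lower with pollen, while the other settings called 0 to 4 lower. The causes were not tested. Of the 42 probes called higher and the 2 called lower, 0 changed sign under any of the 20 settings that gave a value. CCN2 was called in 19 of 20 and ANGPTL4 in 18, DUSP5, DUSP6 and SOCS3 in 16, TFRC in 14 and IL6 in 9, while SIK1B was called in 6 of 19 and ENST00000645464 in 6 of 18. Of uncalled list members, BHLHE41 ranged from -0.012 to 0.422 with 1 pair left out, HAMP from -0.745 to 0.25, with 0.205 under array weights, and PPARD from -0.0080 to 0.239, each changing sign.

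The difference between 2h25min and 55min had 0 calls under every setting that gives it. That between 6h50min and 2h25min had 2, and 1 with no replicate block, with a slide block in its place, with the slide as a further block, without the 55min array of another design and with normexp and the 75th percentile, 10 with a random replicate block, 12 with the value table and with trend and robust eBayes, 22 with normexp and quantile normalization, 1641 with array weights, and 0 with own probes, quantile normalization or no filter, and 0 to 0 without 1 pair. The slide block without the replicate block and the fit without the 55min array were added after the data were seen. Leaving out replicate 3 leaves the pairs of 1 slide. At low signal near background a change cannot be resolved.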
